A study of Mus musculus with 2 samples.

Results

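T cells whose CD8 co-receptor is the alpha-beta heterodimer were described in villus-rich cell suspensions that EDTA released from the proximal small intestine of the mouse. They are called CD8ab barcodes here, since each is 1 droplet barcode that held at least 1 molecule of Ptprc (the leukocyte antigen CD45), at least 1 of Cd3d, Cd3e and Cd3g together, and at least 1 of Cd8b1, the CD8 beta chain. Barcodes with any Trdc (the T cell receptor delta constant gene), Cd4 or Kit molecule were left out, as were those with 3 or more molecules of the cycle genes Top2a, Mki67, Ube2c, Cdk1 and Birc5. The members were thus chosen by the measured values of these 13 genes. They numbered 296 of the 11862 barcodes with at least 500 genes and under 25% mitochondrial molecules, 160 in control 1 and 136 in control 2. Of the 4152 barcodes positive for Ptprc and Cd3, they made up 6.25% (95% exact binomial interval 5.34% to 7.25%, 160 of 2562) in control 1 and 8.55% (7.22% to 10.0%, 136 of 1590) in control 2. The intervals meet only at their ends and cover counting error only, and the 2 shares were not tested against each other.

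CD8 pairs either as alpha-beta, the co-receptor that helps conventional T cells read peptides on class I MHC, or as an alpha-alpha homodimer, which many lymphocytes of the gut epithelium carry and which has a modulating role. In mice the intestinal epithelium holds natural intraepithelial lymphocytes, which take up residence early in life, mostly carry CD8 alpha-alpha and express many receptors shared with natural killer (NK) cells. Beside them lie induced intraepithelial lymphocytes, which descend from conventional T cells primed in lymphoid tissue and include the CD8 alpha-beta cells.

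Both libraries came from C57BL/6 mice that served as controls in a series on lowered expression of the M1 or M3 muscarinic acetylcholine receptor; control 1 is titled as an M1 control and control 2 as an M3 control. Age and sex were not given, and no label states whether separate animals were used. A p-value here thus weighs a difference between populations only against how far that difference varied between these 2 libraries, with variance shared across genes. That variation may be technical. The kind of control and the library cannot be told apart. Gene expression was read by 10x Genomics 3' sequencing, in which each transcript molecule is counted once through a unique molecular identifier (UMI). The CD8ab barcodes held 913666 UMIs in control 1 (median 5020 per barcode, range 1656 to 32559) and 1029626 in control 2 (median 5917, range 1367 to 250869). The other Ptprc- and Cd3-positive barcodes, 2402 in control 1 and 1454 in control 2, had medians of 5498 and 5191 UMIs.

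Within that remainder, 3 populations most like the CD8ab barcodes were drawn. Cd8a-only barcodes (698 in control 1, 321 in control 2) held Cd8a but no Cd8b1, Trdc, Cd4 or Kit. Trdc-positive barcodes (690 and 534) held no Cd8b1, Cd4 or Kit, and Cd4-positive barcodes (36 and 22) held neither CD8 chain, nor Trdc or Kit. All 3 excluded cycling barcodes in the same way. These comparisons share the CD8ab barcodes, and the 3 populations are drawn from the remainder, so that the results are not independent of each other. The 2 libraries shared 17 barcode sequences, none of them among the CD8ab barcodes.

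Before any comparison, 9 of the 296 CD8ab barcodes stood apart. A single barcode of control 2 held 250869 UMIs, 24.4% of all UMIs of the CD8ab barcodes in that library. It had 465 UMIs of Epcam, 4712 of Fabp1 and 4038 of Reg3b, all genes of epithelial cells, against 1 UMI each of Cd8b1 and Cd3. In control 1, 2 barcodes held 32559 and 20222 UMIs, and 1 had 8364 hemoglobin UMIs among 13452. A further 5 (3 in control 1, 2 in control 2) had 13 to 26 UMIs of Siglech, a receptor of plasmacytoid dendritic cells, with 1 Cd3 UMI each and no UMI of Trac, Trbc1 or Trbc2; they go against the label of a T cell. Results are therefore given for all members, as designed, and for a reduced set chosen after the data were seen. The reduced set leaves out barcodes with 3 or more Siglech UMIs, over 20000 UMIs or 10% or more hemoglobin UMIs on both sides, and keeps 154 and 133 CD8ab barcodes against 2342 and 1412 others. The summed level of 20 epithelial markers was 3938 CPM (UMIs scaled to the same total in every sum) in the CD8ab barcodes of control 1 and 18844 CPM in those of control 2, against 9563 and 9768 CPM in the others. Without those 9 and their counterparts it was 4180 and 3237 CPM, against 4374 and 4783 CPM.

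Cd8b1 itself was read at low depth. The CD8ab barcodes held a median of 4 Cd8b1 UMIs in control 1 and 3 in control 2, with a highest value of 14 in both. In epithelial barcodes (Epcam present, no Ptprc or Cd3; median 3204.5 and 3394.5 UMIs) a Cd8b1 UMI was found in 0.119% and 0.635%, which is taken as the background; its source was not tested. At the edge of the rule, 29 CD8ab barcodes of control 1 and 39 of control 2 held a single Cd8b1 UMI. Within the reduced set, Cd6 was at 224 and 406 CPM in the members with 1 Cd8b1 UMI, beside 322 and 256 CPM in those with 2 or more and 20.2 and 65.2 CPM in barcodes that met every other condition with no Cd8b1. Fcer1g was at 1028 and 196 CPM with 1 Cd8b1 UMI, beside 133 and 44.3 CPM with 2 or more and 2016 and 1022 CPM with none. Members with a single Cd8b1 UMI thus lay near those with 2 or more for Cd6, and between those and barcodes with none for Fcer1g. Other genes varied. Gzma was at 15900 and 6727 CPM with 1 Cd8b1 UMI, beside 7513 and 10224 CPM with 2 or more and 31254 and 17199 CPM with none. It lay between the sides in control 1 only. No test was made of these values because the rule used Cd8b1. The rule also turned away barcodes with Cd8b1: of 266 and 181 Ptprc-, Cd3- and Cd8b1-positive barcodes, 85 and 34 held Trdc and 19 and 15 held Kit, with 10 and 9 failing more than 1 condition.

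For the partner chain no difference in level passed the test. Cd8a was detected in 149 of 160 (93.1%) and 122 of 136 (89.7%) CD8ab barcodes, against 78.1% and 71.5% of the others and 5.02% and 7.17% of epithelial barcodes. Its level was 776 and 587 CPM in the CD8ab barcodes, against 853 and 701 CPM in the others, and did not pass the test in all members (log2 fold change -0.19, adjusted p = 0.804) or in the reduced set (-0.18, adjusted p = 0.184). Cd8a RNA was thus readily found on both sides of the split that Cd8b1 made. In mouse genome GRCm38, Cd8b1 lies at chr6:71322788-71337494 and Cd8a at chr6:71373427-71379173, both on the plus strand.

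Against the other Ptprc- and Cd3-positive barcodes, the CD8ab barcodes had more Cd6, Cd2, Smyd1 and Ms4a4b and less Fcer1g, Klrd1, Ikzf2 and Gzma in both sets of barcodes tested. In all members, 14 genes were higher and 76 lower among 12696 tested (0.709% called, 0.11% as higher and 0.599% as lower; edgeR quasi-likelihood test, Benjamini-Hochberg adjusted p of at most 0.05). With the reduced set, 625 were higher and 740 lower among 11834 (11.5% called, 5.28% as higher and 6.25% as lower), and 69 of the 90 genes called in all members were also called there with the same sign. The median log2 fold change over all tested genes was -0.01 and -0.00. The 250869-UMI barcode weighs on the CD8ab sum of control 2 alone, and leaving out barcodes over 20000 UMIs by itself gave 1439 called genes. The calls in all members did not hold under every setting: edgeR called 4 genes without the library block and 0 among barcodes under 10% mitochondrial UMIs, where 364 were higher and 679 lower at an unadjusted p under 0.05. Markers of other cell types were among the calls of the reduced set: 4 of 5 tested B and plasma cell genes, 5 of 20 epithelial genes and 2 of 10 myeloid and mast cell genes were lower, and 3 of 5 erythroid genes were higher. The summed level of the 10 B and plasma cell markers in that set was 94.5 and 120 CPM in the CD8ab barcodes, against 210 and 1083 CPM in the others, and of the 5 erythroid markers 1124 and 1471 CPM, against 694 and 1339 CPM. Their part in the other calls was not tested.

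**Figure D1:**
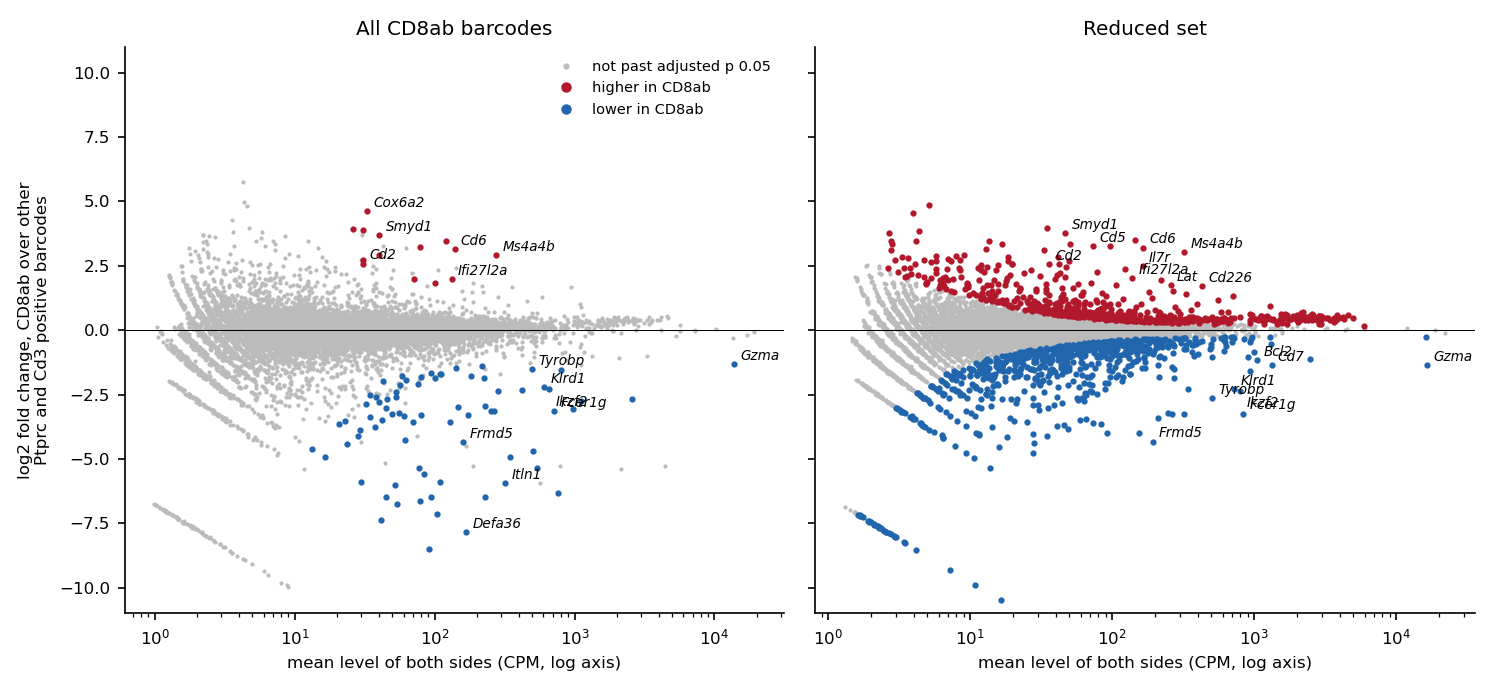
Log2 fold change of each tested gene, CD8ab barcodes over the other Ptprc- and Cd3-positive barcodes (vertical axis), against mean level in CPM on a log axis, for all members (left) and the reduced set (right). Each point is a gene and coloured points passed an adjusted p of 0.05; Cd6 sits near 3.2 and Fcer1g near -3.2 in both panels, while the number of coloured points is 90 on the left and 1365 on the right.

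Among genes of proximal T cell receptor signalling, the CD8ab barcodes stood out from the pooled others for CD6 and CD5. Both are scavenger-type receptors that tune the strength of the receptor's signal. Cd6 (chr19:10789341-10830058, minus strand) had 289 and 211 CPM in the CD8ab barcodes of control 1 and control 2, against 24.7 and 31.5 CPM in the others, so that every CD8ab value was far above every other (log2 fold change 3.15 ± 0.259 SE, edgeR adjusted p = 0.0287; 3.21 ± 0.126 in the reduced set). Cd5 (chr19:10717116-10739002, minus strand) had 158 and 69.0 CPM in the CD8ab barcodes, against 9.06 and 15.3 CPM in the others. Its log2 fold change of 3.18 ± 0.522 did not pass in all members (adjusted p = 0.12) and that of 3.27 ± 0.197 passed in the reduced set. With each barcode thinned to 2000 UMIs, Cd6 was found in 42.7% and 34.9% of CD8ab barcodes, against 4.74% and 5.62% of the others, and unthinned in 73.1% and 69.1%, against 8.33% and 9.22% of the others and 0.239% and 0.363% of epithelial barcodes. Cd6 was therefore well above background in the CD8ab barcodes but not detected in all of them at this depth. Cd4-positive barcodes shared the trait, with Cd6 in 72.2% and 72.7% of them unthinned. Cd5 was found in 52.8% and 63.6% of Cd4-positive barcodes, against 47.5% and 25.7% of CD8ab barcodes.

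Themis, a protein needed for thymocytes to complete positive selection (chr10:28668360-28883818, plus strand), had 619 and 621 CPM in the CD8ab barcodes, against 215 and 371 CPM in the others. Its log2 fold change of 1.14 missed the threshold in all members (adjusted p = 0.206) and 1.17 passed it in the reduced set. Cd5, Cd6 and Themis were named with the population as its markers from these data, so their direction is no independent evidence. The T cell adaptor Lat had 387 and 279 CPM in the CD8ab barcodes, against 98.7 and 103 CPM in the others (1.71, adjusted p = 0.0536; 1.76 in the reduced set, called). Cd2, an adhesion and costimulatory receptor, was higher in both sets, with 58.0 and 47.6 CPM in the CD8ab barcodes, against 9.38 and 8.20 CPM in the others (2.58, adjusted p = 0.0371).

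Of the 28 signalling genes on the list, all were tested. In all members 2 were higher (Cd6, Cd2) and 3 lower (Fcer1g, Tyrobp, Txk), with a median log2 fold change of 0.14. The reduced set gave 11 higher and 8 lower, with a median of 0.17. Both counts of higher genes include markers named from these data, which are no independent evidence. These are Cd6 in all members, and Cd5, Cd6 and Themis in the reduced set. The higher ones included, on the log2 scale, the costimulatory receptor Cd28 (3.36), the phosphatase-family regulator Ubash3a (2.46), the transmembrane adaptor Sit1 (2.56), the adaptor Grap2 (0.70) and the kinase Prkcq (0.44). The lower ones included the Tec-family kinase Txk (-1.41), the phosphatases Ptpn6 (-1.13) and Ptpn22 (-0.27), the Src-like adaptors Sla (-0.58) and Sla2 (-0.74), and the kinase Zap70 (-0.40). The list thus did not move in 1 direction, and Lck, Fyn and Skap1 passed in neither set.

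**Figure D2:**
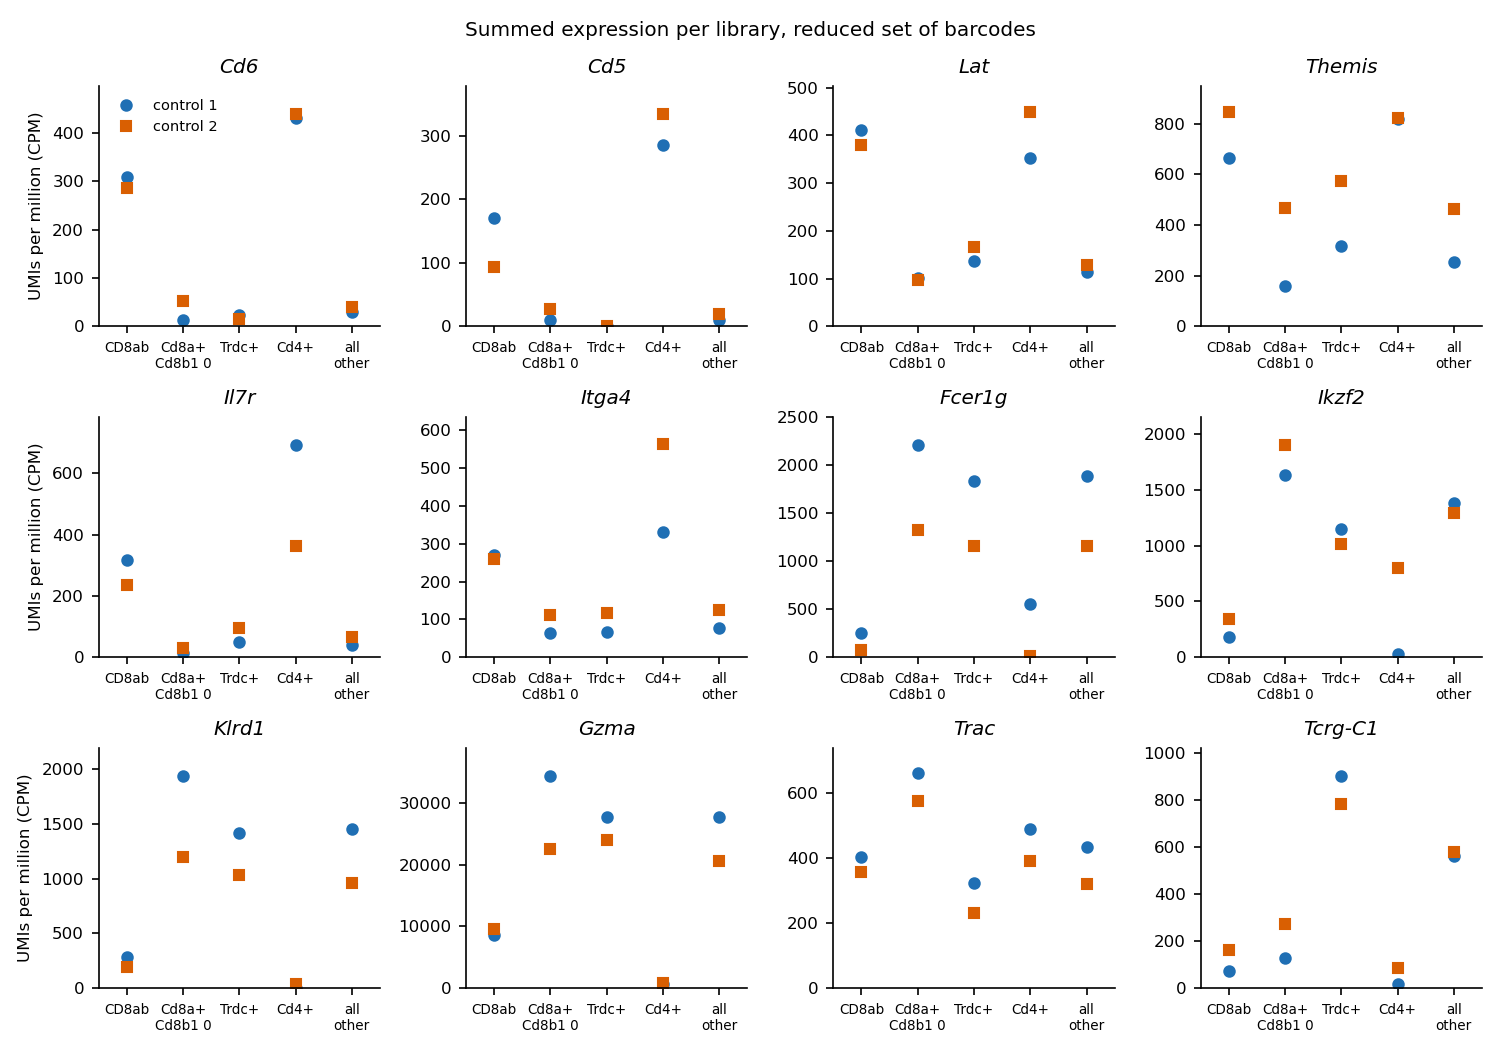
Level of 12 genes in CPM in the reduced set, for the CD8ab barcodes at the left of each panel, then the Cd8a-only, Trdc-positive and Cd4-positive barcodes, and all other Ptprc- and Cd3-positive barcodes at the right; each point is 1 of the 2 libraries. Cd6 is at 309 and 285 CPM in the CD8ab barcodes and at 28.6 and 39.0 CPM in all others, and Fcer1g is at 254 and 74.0 CPM in the CD8ab barcodes and at 1884 and 1155 CPM in all others.

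T cell receptor transcripts were widespread on both sides. A UMI of Trac, Trbc1 or Trbc2, the alpha and beta constant genes, was found in 155 of 160 (96.9%) and 121 of 136 (89.0%) CD8ab barcodes, against 89.6% and 79.8% of the others and 9.26% and 11.9% of epithelial barcodes. It was also found in 92.5% and 86.5% of the Trdc-positive barcodes, so that its presence alone does not mark the CD8ab barcodes. Trac had 393 and 265 CPM in the CD8ab barcodes, against 369 and 258 CPM in the others, a difference that passed in neither set. Trbc1 and Trbc2 passed in the reduced set only, by 0.48 and 0.53 on the log2 scale.

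Transcripts of the gamma constant genes were found in most CD8ab barcodes although Trdc was set to 0 by the rule. A UMI of Tcrg-C1, Tcrg-C2 or Tcrg-C4 was present in 142 of 160 and 114 of 136 (83.8%) CD8ab barcodes, against 2163 of 2402 and 1242 of 1454 (85.4%) others. In Cd4-positive barcodes the shares were 38.9% and 63.6%, and in epithelial barcodes 6.51% and 11.8%. The gene that differed was Tcrg-C1, with 67.9 and 120 CPM in the CD8ab barcodes, against 479 and 466 CPM in the others (log2 fold change -2.37, adjusted p = 0.0434; -2.27 in the reduced set, called). Tcrg-C2 was found in 114 of 160 and 81 of 136 CD8ab barcodes, against 1661 of 2402 and 904 of 1454 others, and Tcrg-C4 in 112 of 160 and 98 of 136, against 1755 of 2402 and 984 of 1454. At 2000 UMIs per barcode, a UMI of any of the 3 genes was found in 69.4% and 74.4% of CD8ab barcodes, against 84.5% and 82.7% of the others. Gamma transcripts were therefore frequent in the CD8ab barcodes and, at equal depth, in a smaller share than around them; the difference in shares was not tested. The gamma constant genes are related in sequence, and no source used here says how reads were split among them.

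The adaptor chains of Fc and NK receptors were lower in the CD8ab barcodes of both sets. Fcer1g, the signalling chain of Fc and NK receptors (chr1:171229572-171234365, minus strand), had 255 and 71.9 CPM in the CD8ab barcodes, against 1594 and 930 CPM in the others, with no overlap (log2 fold change -3.15 ± 0.312, adjusted p = 0.039; -3.24 ± 0.107 in the reduced set). At 2000 UMIs it was found in 12.1% and 6.20% of CD8ab barcodes, against 75.3% and 55.7% of the others. Unthinned, it was found in 20 of 160 and 15 of 136 CD8ab barcodes, against 74.1% and 55.2% of the others and 5.56% and 5.99% of epithelial barcodes. The share in the CD8ab barcodes thus lay above background and far under that of the others. Some members held much of it, up to 14 Fcer1g UMIs in control 1 and 8 in control 2 at 2000 UMIs. Tyrobp, the related adaptor DAP12, had 338 and 176 CPM in the CD8ab barcodes, against 962 and 513 CPM in the others (-1.52, adjusted p = 0.0429). Once the reduced set left out the Siglech barcodes with 17 to 69 Tyrobp UMIs each, it was at 214 and 67.4 CPM, against 1119 and 634 CPM, and the log2 fold change was -2.65. Among the 18 and 22 CD8ab barcodes with no gamma constant UMI the direction turned, to 0.64 (edgeR adjusted p = 0.00359). That setting did not leave out the Siglech barcodes, which held no UMI of Trac, Trbc1 or Trbc2. Their part in the turn was not tested.

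NK receptors were lower wherever they passed the test, apart from Cd160. Of 25 on the list, 22 were tested in all members and 4 were lower (Klrd1, Klre1, Klrb1a, Klra6), none higher, with a median log2 fold change of -1.31. With the reduced set 21 were tested, 11 were lower and only Cd160 was higher (0.51), with a median of -1.35. Klra6 had 1 UMI in each CD8ab sum and Klra3 none, and both entered the tests only through the others; their calls carry no weight, and the other calls are 3 and 9 lower. Klrd1, the CD94 subunit of inhibitory and activating NKG2 receptors, had 293 and 148 CPM in the CD8ab barcodes, against 1222 and 774 CPM in the others (-2.22, adjusted p = 0.0287). Klrb1a, an NK1.1-family lectin, had 13.1 and 5.83 CPM, against 110 and 69.9 CPM (-3.27, adjusted p = 0.0286), and Klre1 9.85 and 11.7 CPM, against 124 and 98.2 CPM (-3.34, adjusted p = 0.0286). Cd244a (2B4) and Cd7 passed in the reduced set only, at -1.02 and -1.35. Klra3 was at 0 in both CD8ab sums, against 19.6 and 15.9 CPM in the others; the Klra genes are near-identical copies and their single values are uncertain.

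Helios, encoded by Ikzf2 (chr1:69531214-69687245, minus strand), is a transcription factor of unconventional T cells and regulatory T cells. It had 196 and 253 CPM in the CD8ab barcodes, against 1164 and 1037 CPM in the others (log2 fold change -2.30, adjusted p = 0.0337), and was the 1 lineage factor of 32 tested to pass in all members. Of 29 lineage factors tested in the reduced set, 10 were higher and 6 lower, with a median of 0.06. The higher ones included Bcl11b, a guardian of T cell identity, with 430 and 371 CPM in the CD8ab barcodes, against 142 and 192 CPM in the others (1.39), the nuclear receptor Rora (1.77), Lef1 (1.53) and Tcf7 (1.49). The lower ones were Ikzf2, Ikzf3, Tox (-0.84), Prdm1, the Blimp-1 gene (-1.12), Nr4a2 (-1.97) and Zbtb16, the PLZF gene, which was at 0 in both CD8ab sums and was tested only through its level in the others, so its call carries no weight. Runx3, which CD8 lineage cells require, passed in neither set.

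Cytotoxic genes were lower in part. Gzma, a granule protease (chr13:113093825-113100981, minus strand), had 8660 and 7023 CPM in the CD8ab barcodes, against 23317 and 16547 CPM in the others (log2 fold change -1.33 ± 0.147, adjusted p = 0.045; -1.35 ± 0.0571 in the reduced set). It was the only 1 of 18 cytotoxic genes to pass in all members. Of 17 tested in the reduced set, 4 were lower, Gzma, Gzmb (-1.11), Gzmc (-3.32) and the death ligand Tnfsf10 (-0.52), and 1 was higher, Gzmk (1.09), with a list median of -0.22. Gzmc had 1 UMI in each CD8ab sum and was tested only through the level in the others, so its call carries no weight here. Perforin (Prf1), Nkg7, Srgn and Fasl passed in neither set.

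The Gzma difference lay in the shape of the distribution. At 2000 UMIs per barcode, the CD8ab barcodes held a median of 3 Gzma UMIs in control 1 and 4 in control 2, against 52 and 22 in the others, and their highest values were 160 and 93. No Gzma UMI was found in 30.6% and 30.2% of the thinned CD8ab barcodes, against 15.1% and 19.4% of the others. Medians were 65.5 and 25 in Cd8a-only barcodes, 53 and 44 in Trdc-positive barcodes, and 0 and 1 in Cd4-positive barcodes. Gzma RNA was also widespread outside T cells, with a UMI in 48.6% and 53.9% of epithelial barcodes, so that a few UMIs do not mark a cell as expressing it. Ccl5, a chemokine stored with granules, had medians of 24 and 21 UMIs in the CD8ab barcodes, against 39 and 20 in the others.

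**Figure D3:**
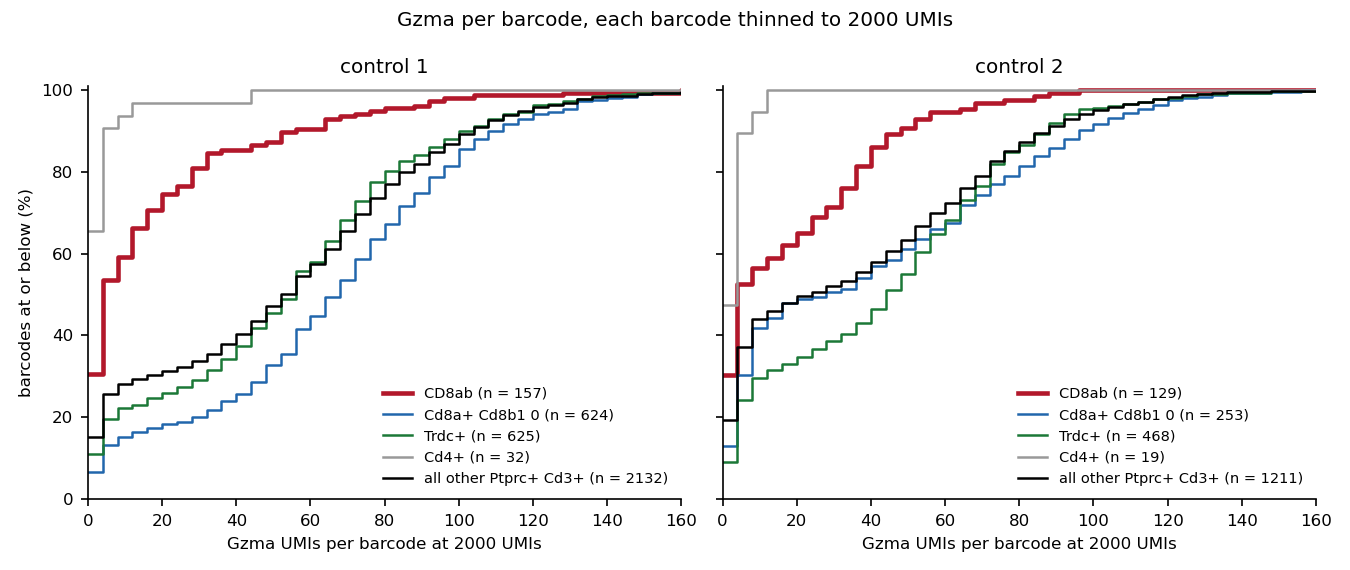
Cumulative share of barcodes (vertical axis, percent) at or below a number of Gzma UMIs after thinning to 2000 UMIs (horizontal axis, read every 4 UMIs), 1 panel per library and 1 line per population. The CD8ab lines start at 30.6% and 30.2% and lie between the Cd4-positive line and those of the Cd8a-only and Trdc-positive barcodes in both libraries.

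Genes of tissue entry and of memory were higher in the CD8ab barcodes of the reduced set. Of 28 homing and retention genes, 26 were tested in all members and none passed (13 were higher and 2 lower at an unadjusted p under 0.05); in the reduced set 14 of 24 were higher and 2 lower (Itga1 and Gpr171), with a median log2 fold change of 0.52. Itga4, the alpha chain of the integrin that carries lymphocytes into the gut, had 266 and 200 CPM in the CD8ab barcodes, against 67.0 and 99.3 CPM in the others, and was called higher in the reduced set. Itgal, the LFA-1 alpha chain, rose by 2.26, Cxcr3 by 1.18, Cd44 by 1.01 and Ccr9, the gut-homing chemokine receptor, by 0.64 in the reduced set. Ccr9 had 379 and 283 CPM in the CD8ab barcodes, against 173 and 231 CPM in the others. Itgae, the CD103 chain that holds lymphocytes at the epithelium, passed in neither set, so that the 2 populations were not shown to differ in it.

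Among 16 genes of circulating naive and memory T cells, 13 were tested in all members with none called (9 higher and 1 lower at an unadjusted p under 0.05), and 10 in the reduced set with 7 higher and 1 lower (Bcl2, -1.15); the reduced-set median was 1.28. Il7r, the interleukin-7 receptor of long-lived T cells, had 303 and 175 CPM in the CD8ab barcodes, against 34.2 and 54.1 CPM in the others (2.43, adjusted p = 0.115 in all members; 2.50 in the reduced set, called). Tcf7, a factor of naive and memory T cells, had 88.7 and 62.2 CPM, against 23.3 and 34.0 CPM. S1pr1 and Klf2, a receptor and a factor of tissue exit, were low in level, S1pr1 at 8.76 and 10.7 CPM in the CD8ab barcodes, against 1.77 and 1.49 CPM in the others. Ccr7, a lymph node homing receptor, was nearly undetected, with a UMI in 1 of 160 and 2 of 136 CD8ab barcodes, against 7 of 2402 and 1 of 1454 others and 0 of 1674 and 1 of 1102 epithelial barcodes.

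Checkpoint and costimulatory receptors moved in both directions. Of 26 tested, 1 was higher (Cd6) and 3 lower (Entpd1, Cd200r1 and Cd200r4) in all members. In the reduced set 11 were higher and 9 lower, with a median of 0.23. The markers Cd6 in all members, and Cd5 and Cd6 in the reduced set, are counted as higher here and are no independent evidence. Cd226, the activating receptor DNAM-1, had 581 and 501 CPM in the CD8ab barcodes, against 124 and 225 CPM in the others (1.72 in the reduced set), and Btla, an inhibitory receptor, 25.2 and 20.4 CPM, against 1.84 and 2.24 CPM (3.45). Entpd1, the ectonucleotidase CD39, had 16.4 and 13.6 CPM, against 97.3 and 85.5 CPM (-2.60, adjusted p = 0.0289). Lag3 was lower in the reduced set (-2.42) while Ctla4 was higher (1.40). Ctla4 differed between the libraries on both sides, with 104 and 21.4 CPM in the CD8ab barcodes, against 34.9 and 8.74 CPM in the others.

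Cytokine receptors included 1 lower gene of 22 in all members, Il2rb, the chain shared by the interleukin-2 and interleukin-15 receptors, with 97.4 and 66.0 CPM in the CD8ab barcodes, against 324 and 239 CPM in the others (-1.79, adjusted p = 0.0366). The reduced set had 4 higher (Il7r, Il2ra, Ifnar2, Tgfbr2) and 3 lower (Il2rb, Il12rb2, Tgfbr1). The CD8ab barcodes thus held less of the shared chain Il2rb than the barcodes around them in both sets, and more Il7r by the reduced-set call only. Of 15 cytokine and chemokine genes in the reduced set, Ltb (1.25), Tnf and Il16 (0.56) were higher, and Ccl3 (-1.02), Ccl5 (-0.28) and Tnfsf8 (-2.12) lower; in all members only Tnfsf8 of 16 passed (-1.93, adjusted p = 0.0434).

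Interferon-induced genes were higher for 3 of 22 in all members, Ifi27l2a, Bst2 and Ly6a, with a median of 0.32, and for 7 of 22 in the reduced set, with a median of 0.51 and Irf8 lower (-2.22). Ifi27l2a had 316 and 108 CPM in the CD8ab barcodes, against 77.4 and 27.7 CPM in the others (2.00, adjusted p = 0.0286). Control 1 was thus above control 2 on both sides, and within each library the CD8ab barcodes were higher. Bst2 is also a plasmacytoid dendritic cell gene: its log2 fold change was 1.84 with the Siglech barcodes and 0.58 in the reduced set. Of 19 class I genes, none passed in all members (3 were higher and none lower at an unadjusted p under 0.05) and H2-Q7, Tap2, Psmb8 and Psmb9 were higher in the reduced set by 0.41 to 0.49, with H2-Q7 a near-identical copy of its neighbours. Immediate early and stress genes, which cell isolation can raise, had none of 29 called in all members (2 higher and 4 lower at an unadjusted p under 0.05) and 4 higher and 4 lower of 26 in the reduced set.

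**Figure D4:**
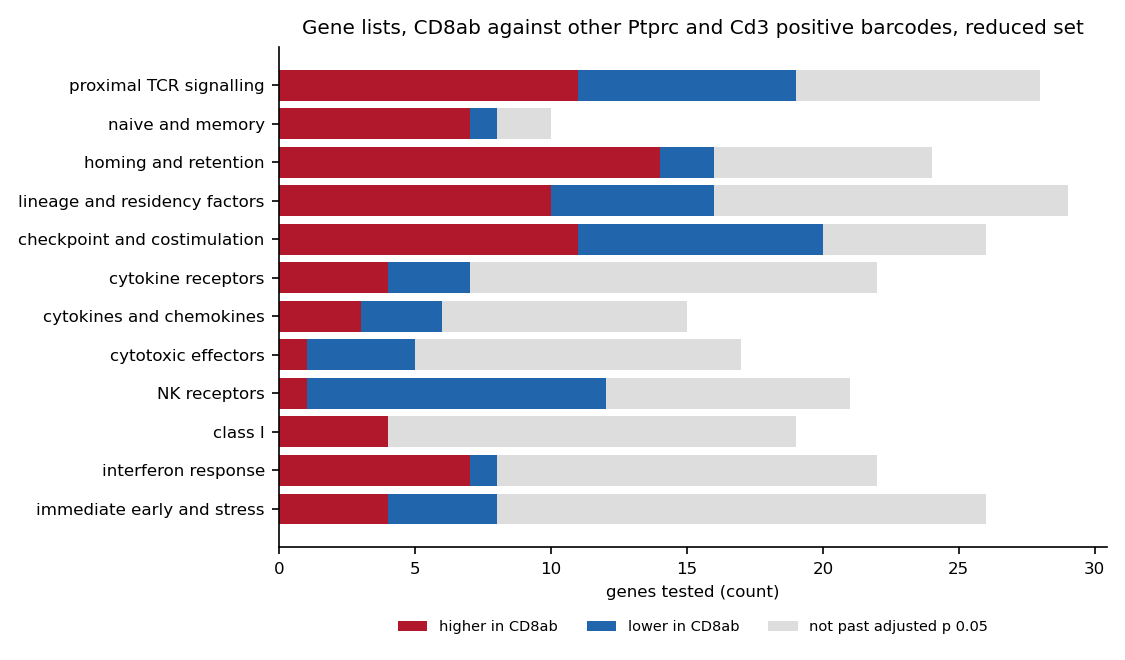
Number of genes per list (horizontal axis) that were higher, lower or not past an adjusted p of 0.05 in the CD8ab barcodes against the other Ptprc- and Cd3-positive barcodes of the reduced set, 1 bar for each of 12 lists. Homing and retention has 14 higher and 2 lower, NK receptors 1 higher and 11 lower, and proximal receptor signalling 11 higher and 8 lower, beside 5.28% higher and 6.25% lower over all 11834 tested genes. The higher signalling genes include the markers Cd5, Cd6 and Themis, and the higher checkpoint genes include Cd5 and Cd6.

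By fold change, the genes leading the rise in all members, with at least 50 CPM on the higher side, were Cox6a2, Smyd1, BE692007, Cd6, Ms4a4b, Ly6d, Ly6a, Cd2, Ifi27l2a, Rgs10 and Bst2. Smyd1, a muscle-associated histone methyltransferase, had 89.7 and 60.2 CPM in the CD8ab barcodes, against 4.94 and 6.71 CPM in the others (3.69, adjusted p = 0.0371). Its gene lies on the minus strand at chr6:71213940-71322233 and begins 554 bases from the start of Cd8b1, the gene that chose the members. Ms4a4b, a tetraspan membrane protein of T cells, had 675 and 307 CPM, against 67.2 and 54.2 CPM (2.92, adjusted p = 0.0364), and BE692007 270 and 175 CPM, against 17.7 and 22.5 CPM (3.45, adjusted p = 0.0312). These last genes are neighbours on chromosome 19, Ms4a4b at chr19:11443553-11467055 on the plus strand and BE692007 at chr19:11470166-11484578 on the minus strand. Cox6a2 and Ly6d rest on the Siglech barcodes: in the reduced set Cox6a2 was at 0 and 1.32 CPM and Ly6d at 0 in both CD8ab sums.

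For the reduced set the leading higher genes were Smyd1, BE692007, Cd5, Cd6, Pde11a, Ms4a4b, Gramd3, Slco3a1, Cd2, Slfn1, Il7r and Ubash3a. Pde11a, a cyclic nucleotide phosphodiesterase, had 63.0 and 55.5 CPM in the CD8ab barcodes of that set, against 5.90 and 8.47 CPM in the others. The leading lower genes were Pdzd2, Nrcam, Frmd5, Sh2d1b1, Rnf180, Myo1e, Spry2, Aoah, Zmat4, Klre1, Klrb1a and Itih5. Frmd5 had 14.2 and 15.5 CPM in all CD8ab members, against 335 and 275 CPM in the others (-4.34, adjusted p = 0.0193), and Sh2d1b1, the NK cell adaptor EAT-2, 4.38 and 2.91 CPM, against 73.1 and 37.7 CPM (-3.89, adjusted p = 0.0296).

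The lower genes leading in all members were of another kind. They were Defa23, Defa36, Defa5, Mptx2, Defa26, Ang4, Defa21, Defa29, Defa3, Defa22, Itln1 and Mmp7, products of Paneth cells or goblet cells of the epithelium. Defa36, a Paneth cell defensin, was at 0 and 2.91 CPM in the CD8ab barcodes, against 3.23 and 666 CPM in the others, so that the level was carried by the others of control 2. The others of the reduced set had 0.307 and 7.13 CPM and only Ang4 and Itln1 of the 12 were still called lower, while 4 were no longer tested. The defensins are near-identical copies, and most of the 12 entered the test only through the others.

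Cd8a-only barcodes were defined by Cd8a UMIs and no Cd8b1 UMI, which does not show that the beta chain was absent. After thinning to equal depth, no Cd8b1 UMI was found in 21.0% and 29.5% of the CD8ab barcodes themselves. Cd8a-only barcodes had medians of 5440.5 and 3570 UMIs, against 5020 and 5917 in the CD8ab barcodes. The part of missed Cd8b1 or Trdc UMIs in this comparison was not tested. Against Cd8a-only barcodes, the CD8ab barcodes had more Il7r, Tcf7 and Ms4a4b and less Klrd1, Fcer1g and Ikzf2. In all members 61 genes were higher and 118 lower among 9791 (1.83% called, 0.623% as higher and 1.21% as lower), and in the reduced set 562 and 677 among 9124 (13.6% called, 6.16% as higher and 7.42% as lower). Il7r had 303 and 175 CPM in the CD8ab barcodes, against 13.4 and 27.3 CPM in Cd8a-only barcodes (log2 fold change 3.64, adjusted p = 0.0159), Tcf7 88.7 and 62.2 CPM, against 8.39 and 13.3 CPM (2.87, adjusted p = 0.0159), and Ms4a4b 675 and 307 CPM, against 27.8 and 33.0 CPM (3.96, adjusted p = 0.0105). Klrd1 had 293 and 148 CPM in the CD8ab barcodes, against 1727 and 1051 CPM (-2.68, adjusted p = 0.00963), Fcer1g 255 and 71.9 CPM, against 1971 and 1164 CPM (-3.45, adjusted p = 0.0103), and Ikzf2 196 and 253 CPM, against 1463 and 1657 CPM (-2.79, adjusted p = 0.00926). These 6 genes were picked from those called, so their like direction in both libraries adds no further support. S1pr1, at 8.76 and 10.7 CPM in the CD8ab barcodes, was at 0 in both sums of Cd8a-only barcodes. Any call of S1pr1 here rests on the CD8ab side alone.

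By list in all members, 4 of 11 naive and memory genes were higher and 1 lower (median 2.71), 9 of 12 NK receptors were lower (median -2.63), and 6 of 27 signalling genes were higher and 4 lower. The reduced set gave counts of 7 higher and 2 lower of 10, 1 higher and 11 lower of 12, and 12 higher and 7 lower of 27. Of the 3 tested markers, 1 is among the higher signalling genes in all members and 3 are in the reduced set. They are no independent evidence. Klra3 and Klra6 are again among the lower NK receptors only through their level in Cd8a-only barcodes, as is Klra3 against Trdc-positive barcodes. The named leaders were Cox6a2, Siglech, Ly6d, Ms4a4b and BE692007 above and Klra6, Frmd5, Klre1, Sh2d1b1 and Spry2 below in all members. For the reduced set they were Ms4a4b, BE692007, Kcnn4, Thy1 and Il7r above and Klra6, Pdzd2, Frmd5, Klre1 and Sh2d1b1 below. Kcnn4, a calcium-activated potassium channel of T cells, had 59.1 and 55.4 CPM in the CD8ab barcodes, against 3.36 and 5.07 CPM in Cd8a-only barcodes (3.83, adjusted p = 0.0102), and Thy1, a T cell surface glycoprotein, 215 and 138 CPM, against 8.15 and 24.1 CPM (3.64, adjusted p = 0.0251). The 10 B and plasma cell markers summed to 114 and 115 CPM in the CD8ab barcodes and to 136 and 4224 CPM in Cd8a-only barcodes; their part in the control 2 values was not tested.

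Against Trdc-positive barcodes, no gene passed in all members among 10610 tested (0% called), although 425 were higher and 505 lower at an unadjusted p under 0.05, and DESeq2 called 55 higher and 48 lower. In the reduced set edgeR called 494 higher and 539 lower among 10099 (10.2% called, 4.89% as higher and 5.34% as lower). Cd5 gave the widest ratio of the named genes: 171 and 93.8 CPM in the CD8ab barcodes of the reduced set, against 0.279 and 0.680 CPM in Trdc-positive barcodes, where 1 of 690 and 2 of 534 barcodes held a Cd5 UMI. Cd5 was thus close to absent from Trdc-positive barcodes and present in both CD8ab sums. Cd28 was at 40.5 and 12.6 CPM in all CD8ab members and at 0 in both sums of Trdc-positive barcodes. Cd5 and Cd28 thus entered the tests here only through the CD8ab side, so any call of them carries no weight. Cd6 was at 309 and 285 CPM in the reduced set, against 23.2 and 14.6 CPM (3.98), and Il7r at 317 and 235 CPM, against 50.8 and 94.8 CPM (1.99).

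The other leaders of the reduced set against Trdc-positive barcodes were Pde11a, Smyd1 and BE692007 above and Zmat4, Sh2d1b1, Frmd5, Myo1e and Spry2 below. By list, 11 of 28 signalling genes were higher and 7 lower, 1 of 12 NK receptors was higher and 9 were lower, 6 of 17 cytotoxic genes were lower and none higher (Gzmc again only through the other side), and 9 of 23 homing genes were higher and 2 lower. The signalling count includes the markers Cd5 and Cd6, and any call of Cd5 or Cd28 rests on the CD8ab side alone. The lower cytotoxic genes were Gzma (-1.48), Gzmb (-1.27), Gzmc, Prf1 (-0.55), Nkg7 (-0.31) and Tnfsf10. Trac (0.49) and Trbc2 (0.76) were higher and Tcrg-C1 was lower (-2.85), at 73.9 and 161 CPM in the CD8ab barcodes, against 900 and 783 CPM in Trdc-positive barcodes.

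Against Cd4-positive barcodes, the CD8ab barcodes had more Gzma, Gzmb and Nkg7. In all members 51 genes were higher and 25 lower among 7287 (1.04% called, 0.7% as higher and 0.343% as lower), and in the reduced set 46 and 81 among 6582 (1.93% called, 0.699% as higher and 1.23% as lower). Of the 76 genes called in all members, 34 were called in the reduced set with the same sign and 1 with the other sign. The remaining 41 were not called there, and 19 of them were not tested. Gzma had 8660 and 7023 CPM in the CD8ab barcodes, against 685 and 811 CPM in Cd4-positive barcodes (log2 fold change 3.43, adjusted p = 9.29e-08), Gzmb 1619 and 1064 CPM, against 206 and 344 CPM (2.34, adjusted p = 0.00105), and Ccl5 14064 and 10364 CPM, against 2617 and 3637 CPM (2.01, adjusted p = 1.69e-05). Klrd1 had 293 and 148 CPM, against 6.06 and 38.2 CPM (3.56, adjusted p = 0.00978), and Cd7 775 and 499 CPM, against 109 and 115 CPM (2.54, adjusted p = 0.00104). For Gzma, Klrd1 and Cd7 the CD8ab barcodes thus lay above Cd4-positive barcodes and, in the reduced set, below the rest of the Cd3-positive barcodes.

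In the reduced set 6 of 15 cytotoxic genes and 3 of 4 NK receptors were higher and none lower against Cd4-positive barcodes, and none of 27 signalling genes was higher while Cd5 (-1.21), Cd28 (-2.08) and Cd247 (-0.71) were lower. Itgae (1.15), Itga1 (0.94), Gpr18 (1.53), Gpr55 (1.30) and Runx3 (0.81) were higher. Runx1, the factor Rora, Lef1, Gata3, Icos, Il12rb2, Il18r1 and Il18rap were lower, Il12rb2 at 53.6 and 53.4 CPM in all CD8ab members, against 370 and 305 CPM (-2.62, adjusted p = 0.000931). Named leaders with no count in Cd4-positive barcodes were Malrd1, Myo1d, Smyd1, Cobl and Ly6d. They were tested only through the CD8ab barcodes, so their calls carry no weight. Without the deep and Siglech barcodes only Smyd1 of these stayed above 50 CPM, at 95.7 and 77.9 CPM. The remaining leaders were Adgrg5 and Cited4 above, and Podnl1, Apoe, Plcb4 and Izumo1r below. Apoe, a macrophage lipoprotein, had 28.5 and 7.77 CPM in the CD8ab barcodes, against 3271 and 9.55 CPM in Cd4-positive barcodes, where 16 myeloid markers summed to 3217 CPM in control 1 and 38.2 CPM in control 2. Podnl1, Plcb4 and Izumo1r had at most 2 UMIs in a CD8ab sum and were tested only through the Cd4-positive barcodes. The 5 erythroid markers summed to 10196 and 1179 CPM in the CD8ab barcodes, against 46260 and 8773 CPM in Cd4-positive barcodes, and 4 of 4 tested were lower in all members and 3 of 4 in the reduced set. Of 18 epithelial markers tested in all members, 4 were higher and none lower, and of 15 in the reduced set none was higher and 2 were lower. The part of these cell types in the result was not tested. The Cd4-positive barcodes are few, and the low counts of 36 and 22 barcodes limit what could be tested.

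The CD8ab barcodes were not uniform. They were split by Gzma after thinning in the reduced set, with 45, 48 and 58 barcodes of control 1 and 36, 36 and 54 of control 2 at 0, 1 to 9, and 10 or more Gzma UMIs. The split uses these cells' own values, so the levels in the classes are descriptions with no test, and counting error in Gzma bears on the classes. Gzmb was at 98.4, 388 and 3822 CPM in control 1 and 65.3, 613 and 2754 CPM in control 2 from the lowest to the highest class. Ccl5 was at 6800, 9481 and 26000 CPM in control 1 and 3724, 10935 and 22134 CPM in control 2. Both effector genes thus followed Gzma in both libraries.

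Other genes ran the other way or followed Gzma, also within the homing list. Tcf7 was at 135, 141 and 26.1 CPM in control 1 and 196, 115 and 5.76 CPM in control 2. Itga4 was at 381, 300 and 160 CPM in control 1 and 362, 346 and 147 CPM in control 2, and Il7r at 451, 311 and 216 CPM in control 1 and 286, 256 and 196 CPM in control 2. Ms4a4b was at 984, 858 and 372 CPM in control 1 and 613, 648 and 173 CPM in control 2. The class with the most Gzma had the lowest level of these 4 genes in both libraries. Itgb7, the partner chain of Itga4, was at 242, 355 and 392 CPM in control 1 and 286, 291 and 449 CPM in control 2. Itgae was at 705, 799 and 895 CPM in control 1 and 1071, 1024 and 1240 CPM in control 2, so that both integrin chains were highest in the class with the most Gzma.

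The NK-type genes were also unequal within the CD8ab barcodes. Klrd1 was at 115, 144 and 529 CPM in control 1 and 55.3, 90.4 and 334 CPM in control 2, and Fcer1g at 8.20, 166 and 532 CPM in control 1 and 30.2, 5.02 and 138 CPM in control 2. Even the highest class thus lay under the 1884 and 1155 CPM of Fcer1g and the 1456 and 962 CPM of Klrd1 in the other Ptprc- and Cd3-positive barcodes of the reduced set. Cd6 did not follow Gzma downward, with 283, 285 and 350 CPM in control 1 and 231, 226 and 345 CPM in control 2, and the median depth of the classes was 5022, 5167 and 4844 UMIs in control 1 and 4974, 5917 and 6250.5 UMIs in control 2.

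**Figure D5:**
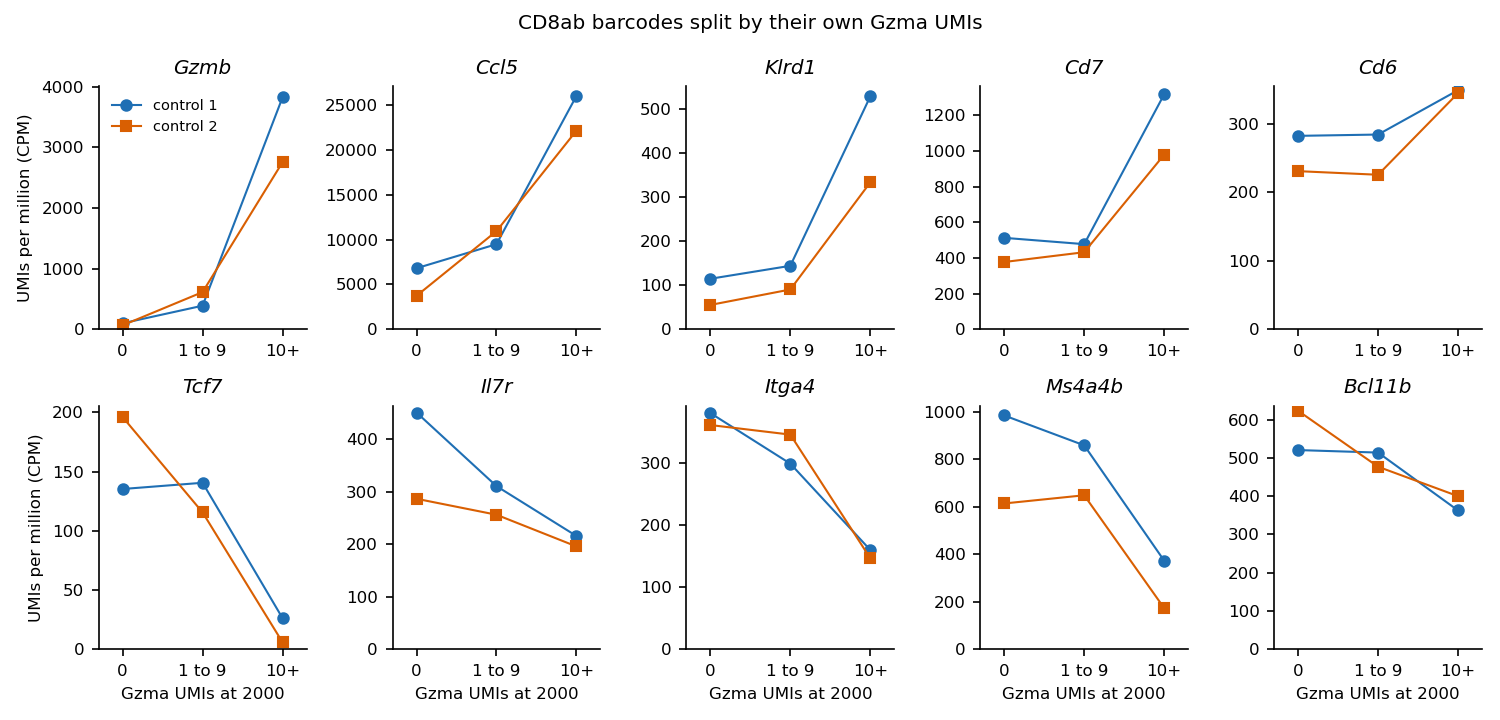
Level in CPM of 10 genes in CD8ab barcodes of the reduced set with 0, 1 to 9 and 10 or more Gzma UMIs after thinning to 2000 UMIs; each line is 1 library. Gzmb and Ccl5 climb from the lowest to the highest class, Tcf7 and Itga4 are lowest in the highest class in both libraries, and Cd6 is highest there at 350 and 345 CPM.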

How the data were processed

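The deposited values were whole-number UMI counts per gene and barcode, 1 matrix for each of the 2 control libraries. Cell Ranger 6.1 and 7.1.0 and the genome GRCm38 (mm10) are named in the submitters' processing notes; no source used here ties a version to a step. The matrices held 9342 and 7109 barcodes with 54451793 and 36139325 UMIs, of which 7120 and 4742 passed the filters. Coordinates came from a GRCm38 annotation whose gene identifiers matched those of the files.

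Counts were summed per library and population, giving 2 sums against 2, and tested in edgeR 4.0.16 (R 4.3.3) by the quasi-likelihood test with TMM scaling, filterByExpr and library as a block, which leaves 1 residual degree of freedom; p-values were adjusted by the Benjamini-Hochberg method over all tested genes. The library number pairs the sums because both sides of a pair came from the same library. The genes of the rule were left out of the tests after scaling, and Cd8a too against Cd8a-only and Cd4-positive barcodes. CPM are UMIs scaled to the same total in every sum. Barcodes were thinned to 2000 UMIs for shares and medians per barcode. The procedure was tested on simulated data. Scrublet (scanpy 1.11.5) called 5 of 7120 and 28 of 4742 barcodes as doublets, too few in control 1 to have worked, so no doublets were removed in the designed analysis.

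The members and gene lists were chosen with earlier results of these data known. Named genes were the 12 largest changes each way against the other Ptprc- and Cd3-positive barcodes and the 5 each way against each other population, among genes past an adjusted p of 0.05 with 1 sign in both libraries and a mean of at least 50 CPM on the higher side, passing over ribosomal, mitochondrial, receptor segment and unnamed genes; list members were named as well. Alternatives covered scaling, DESeq2 1.42.0, filters, the block, thinning and stricter or looser choices of members.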

Additional observations from a re-analysis of the deposited data

How the results depend on the processing

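The counts of called genes depended on the choice of barcodes. Against the other Ptprc- and Cd3-positive barcodes the count of 90 became 172 with DESeq2, 372 with no filter on low counts, 1258 with at least 2 Cd8b1 UMIs, 638 with no gamma constant UMI, 1235 without barcodes holding epithelial UMIs, 1476 without the barcodes of highest Scrublet score, 0 with under 10% mitochondrial UMIs, 660 after thinning, 58 without cycling barcodes on the other side, 1439 without barcodes over 20000 UMIs and 1365 in the reduced set. Against Cd8a-only barcodes the count of 179 became, in the same terms, 724 with no filter, 1044 with 2 Cd8b1 UMIs, 461 with no gamma constant UMI, 1007 without epithelial UMIs, 1258 by Scrublet score, 428 thinned, 116 without Siglech barcodes, 1307 without deep barcodes and 1239 in the reduced set. Against Trdc-positive barcodes the count of 0 became 103, 239, 1049, 429, 903, 856, 482, 1034 and 1033 with DESeq2, no filter, 2 Cd8b1 UMIs, no gamma constant UMI, no epithelial UMIs, Scrublet score, thinning, no deep barcodes and the reduced set. Against Cd4-positive barcodes the count of 76 became 26 with DESeq2, 245 with no filter, 13 with no gamma constant UMI, 123 by Scrublet score, 38 thinned, 45 without Siglech barcodes, 141 without deep barcodes and 127 in the reduced set. With no replicate block pairing the sums by library, the 4 counts were 4, 144, 56 and 0, the last with 351 higher and 239 lower at an unadjusted p under 0.05 in edgeR and 26 called by DESeq2. The mean share of 7.40% became 5.71% with 2 Cd8b1 UMIs, 1.12% with no gamma constant UMI and 9.05% without epithelial UMIs, and 6.25% to 8.55% when each library was left out. Signs turned for Cox6a2 (-2.17) and Ly6d (-9.03) when a Trac or Trbc UMI was required, Ly6d without Siglech barcodes (-7.84), Mptx2 (0.16) and Defa22 (0.16) without deep barcodes, Mptx2 in the reduced set (0.21), and Tyrobp (0.64) and Xcl1 (-1.13) with no gamma constant UMI, which leaves 18 and 22 members. The setting with no gamma constant UMI did not leave out Siglech barcodes. The cause of the turns in that setting was not tested. The reduced set and the settings without deep or Siglech barcodes were chosen after the data were seen. Leaving out a library leaves 1 sum on each side and no test of genes; the 36 and 22 Cd4-positive barcodes limit the depth of that comparison.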

Other observations

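Ribosomal protein genes, a group chosen after their values were seen and passed over by the rule for named genes, were higher in the CD8ab barcodes of the reduced set. Of 74 tested against the other Ptprc- and Cd3-positive barcodes, 70 passed as higher, with a median log2 fold change of 0.46, beside 5.28% of all tested genes called higher (edgeR quasi-likelihood test). In all members none of the 74 passed, with a median of 0.35. Against Cd8a-only, Trdc-positive and Cd4-positive barcodes of the reduced set, 36, 61 and 2 passed as higher, with medians of 0.62, 0.33 and 0.14; these comparisons share the CD8ab barcodes.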
